A study of Mus musculus with 10 samples.

Results

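R-spondins (Rspo1 to Rspo4) are secreted proteins that strengthen the response of a cell to Wnt ligands. They bind the receptors Lgr4, Lgr5 and Lgr6 and remove the transmembrane ubiquitin ligases Znrf3 and Rnf43 from the cell surface. Without R-spondin these ligases tag Frizzled receptors for breakdown, so R-spondin leaves more Frizzled and co-receptor on the membrane. The habenula is one of the brain regions in which the Wnt effector Tcf7l2 stays abundant in the adult. The 9 genes of this module (4 ligands, 3 receptors and 2 ligases) were read by symbol from the count files, which hold 32531 genes, and all 9 were found.

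All libraries were made from adult Chat-TRAP (DW167) animals. These mice carry a BAC transgene in which Chat regulatory sequence drives EGFP fused to the ribosomal protein Rpl10a, so that ribosomes are tagged in cells that use this sequence. Left and right medial habenula were taken separately, tagged polysomes were pulled down, and the RNA on them was sequenced, in 5 left and 5 right libraries. Both sides therefore share the transgene, the pull-down and the adult stage, and the labels name no treatment. The labels do not say whether the libraries of a side are separate animals, single or pooled, so the p-values measure the spread between libraries, which may be technical.

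Depth was 42488448 to 67942836 gene reads per library. Levels are given as CPM, counts per 1000000 gene reads after TMM scaling, and intervals and tests rest on the spread between libraries. Defining markers of medial habenular neurons were present in all 10 libraries, with a summed level of 4663 to 9145 CPM over 11 genes. Among them the neuropeptide gene Tac2 was at 364 to 1108 CPM and the nicotinic receptor gene Chrna3 at 629.6 to 1262 CPM. Replicates 1 and 5 of both sides stood apart from the other 6 libraries. In those 4 libraries the summed level of astrocyte markers (12 of 12 genes with reads) ranged from 125.4 to 130.2 CPM, against 434.7 to 1789 CPM elsewhere. Oligodendrocyte markers (10 of 10) ranged from 100.1 to 106.2 CPM, against 382.5 to 1675 CPM. Replicates 1 and 5 of a side were also far more alike than other pairs of that side. Their chi-square per degree of freedom over genes with a mean of 100 to 500 reads in the pair was 2.66 for the left pair and 1.38 for the right pair, where 1 is counting noise alone, against 9.16 to 86.6 for the other pairs of a side. They differed by more than counting noise and were kept as separate libraries, and the results that rest on them are given with and without them.

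Rspo4 was highest in replicates 1 and 5 of both sides, an order shown by 23.6% of tested genes, while Rspo1 was lowest in replicates 1 and 5 of the left. The upstream sequences of these ligands were picked by that contrast, and their part in it was not tested. RefSeq promoters of GRCm38.p6 were matched for 5 of the 9 genes (Rspo1, Rspo4, Lgr4, Lgr6 and Rnf43). The 250 bases before the start site are printed, and capitals mark CACGTG (an E-box) and GGGCGG or its reverse complement CCGCCC (a GC box). The Rspo4 stretch is chr2:151842677-151842926, plus strand, and the Rspo1 stretch is chr4:124986180-124986429, plus strand, and each ends at the base before the annotated start of its gene.
Rspo4: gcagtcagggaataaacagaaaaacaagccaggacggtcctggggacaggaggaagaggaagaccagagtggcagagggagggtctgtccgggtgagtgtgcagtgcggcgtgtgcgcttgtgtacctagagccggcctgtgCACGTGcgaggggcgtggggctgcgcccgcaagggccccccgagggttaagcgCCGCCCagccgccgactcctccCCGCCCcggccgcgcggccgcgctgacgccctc
Rspo1: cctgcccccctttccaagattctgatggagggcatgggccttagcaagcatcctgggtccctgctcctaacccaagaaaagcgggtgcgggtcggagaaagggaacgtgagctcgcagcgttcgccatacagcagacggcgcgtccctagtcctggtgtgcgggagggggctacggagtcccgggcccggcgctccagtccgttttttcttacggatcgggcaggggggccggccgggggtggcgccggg

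The Rspo4 stretch held 1 CACGTG, starting 108 bases before the start site, and 2 GC boxes, starting 55 and 33 bases before it. The Rspo1 stretch held neither. CACGTG occurs in 6.02% and GGGCGG in 32.7% of the 32851 promoter entries of the same length, on either strand. The Tcf/Lef core CTTTGAT, searched on both strands and overlapping neither of the others, was in none of the 6 stretches of the 5 matched genes (Rnf43 has 2) and is in 3.21% of all entries. GC content was 69.6% for Rspo4 and 66.8% for Rspo1, against a median of 52.4%.

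Among the ligands, Rspo3 had the highest level per kilobase of exon in every library. Rspo3, on the minus strand of chromosome 10 of GRCm38 (mm10) from 29452416 to 29535867, stood at 112.9, 116.8, 87.5, 78.6 and 115.6 CPM in left replicates 1 to 5. On the right it stood at 120.3, 111.3, 60.0, 81.6 and 119.0 CPM. The lowest values were in replicates 3 and 4 of both sides and the ranges of the sides overlapped. The means of left and right were 102.3 ± 17.9 and 98.4 ± 26.6 CPM (SD, n = 5 each). The log2 fold change, left minus right throughout, was 0.06 with a 95% interval of -0.40 to 0.51. Of its exonic bases 13.1% are shared with Gm48159 on the other strand, and without the strand setting of the counting reads from these bases cannot be told apart.

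Rspo4, whose human counterpart is known from inherited absence of nails, was the next ligand per kilobase. It lies on the plus strand of chromosome 2 from 151842927 to 151874668 and stood at 29.7, 27.1, 19.8, 19.7 and 34.3 CPM in left replicates 1 to 5. On the right it stood at 33.5, 26.7, 17.4, 17.1 and 35.7 CPM. All 4 libraries of replicates 1 and 5 were above all of the other 6, a pattern shown by 23.6% of the 16250 tested genes. The means were 26.1 ± 6.35 and 26.1 ± 8.70 CPM, with a log2 fold change of 0.00 (95% interval -0.56 to 0.56). Per kilobase of exon, the ratio of Rspo3 to Rspo4 was between 2.56 and 3.66 in all 10 libraries. Rspo3 and Rspo4 were both lowest in replicates 3 and 4, the 4 libraries with the lowest summed medial habenular markers (4663 to 5975 CPM) and the highest summed astrocyte markers (1184 to 1789 CPM). Their part in these values was not tested, and fewer cells of a type cannot be told apart from less RNA per cell in such samples.

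Rspo1, on the plus strand of chromosome 4 from 124986430 to 125009099, had far fewer reads. Its counts were 39, 129, 224, 264 and 28 reads in left replicates 1 to 5, or 0.641, 2.01, 3.79, 3.94 and 0.516 CPM. On the right they were 143, 150, 266, 130 and 141 reads, or 2.10, 2.23, 4.10, 3.23 and 2.10 CPM. The highest libraries were replicates 3 and 4 of both sides, and left replicates 1 and 5 lay below all others. The means were 2.18 ± 1.65 and 2.75 ± 0.891 CPM, with a log2 fold change of -0.33 (95% interval -1.56 to 0.90).

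Rspo2, on the minus strand of chromosome 15 from 43020794 to 43170826, was near the limit of detection. It had 3, 11, 14, 2 and 1 reads in left replicates 1 to 5 and 1, 4, 5, 2 and 3 on the right, at most 0.237 CPM. It did not pass the filter on low counts and was not tested. As shares of the R-spondin signal per kilobase, Rspo3 made up 67.2% to 75.1%, Rspo4 20.5% to 27.7%, Rspo1 0.510% to 7.32% and Rspo2 at most 0.12% of a library. The longest run of bases shared by transcripts of any pair of R-spondin genes was 15. Runs between classes were longer for some pairs, with 37 for Rspo1 and Lgr5, 38 for Rspo1 and Znrf3 and 49 for Lgr5 and Znrf3. Their part in the counts was not tested.

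**Figure D1:**
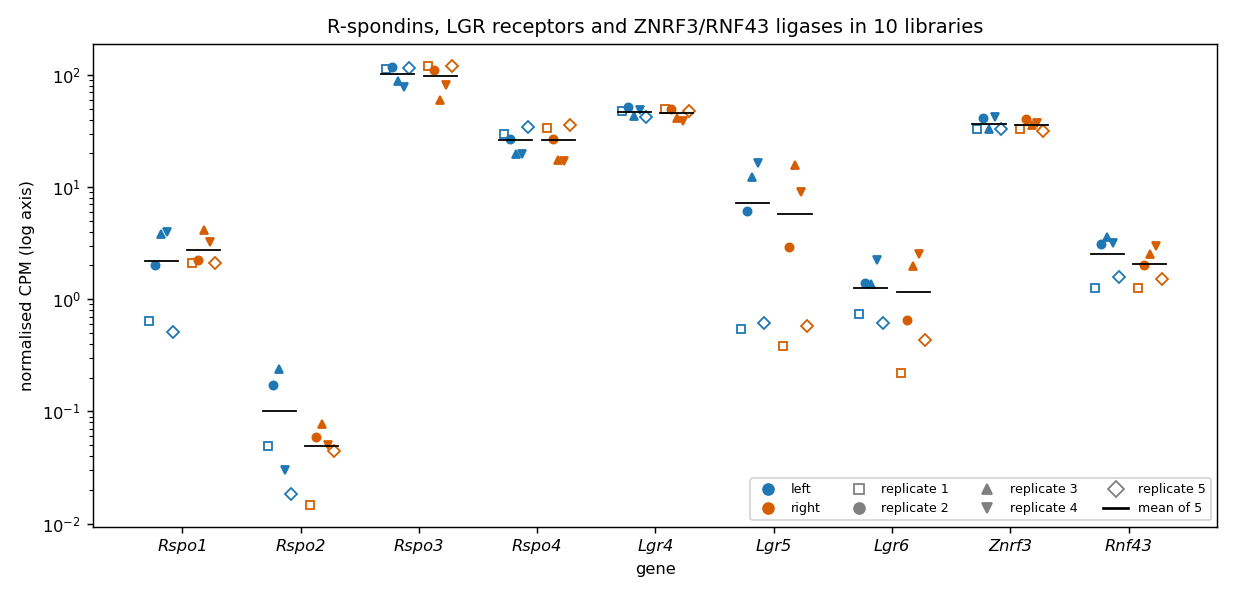
Normalised CPM (log axis) of the 9 genes in each of the 5 left (blue) and 5 right (orange) libraries, with a symbol for each replicate number, open symbols for replicates 1 and 5, and a bar for the mean of 5. Rspo3, Rspo4, Lgr4 and Znrf3 lie between 17.1 and 120.3 CPM in every library, while Lgr5 is at 0.382 to 0.608 CPM in the open symbols and at 2.90 to 16.4 CPM in the filled ones.

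Among the receptors, Lgr4 had the highest level per kilobase and varied least. Lgr4, on the plus strand of chromosome 2 from 109917647 to 110014257, stood at 47.4, 51.4, 43.4, 48.5 and 42.3 CPM in left replicates 1 to 5. On the right it stood at 50.1, 49.9, 41.5, 39.2 and 47.3 CPM. The highest library was only 1.31-fold above the lowest, and replicates 1 and 5 lay inside the range of the other libraries. Its SD of log2 CPM over the 10 libraries was 0.13, against a median of 0.26 for the 8960 tested genes that averaged 10 CPM or more. The means were 46.6 ± 3.73 and 45.6 ± 4.96 CPM (log2 fold change 0.03, 95% interval -0.20 to 0.26).

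Lgr5, the receptor best known as a marker of intestinal stem cells, had the widest range of the 8 tested members. It lies on the minus strand of chromosome 10 from 115450311 to 115587780 and had 33, 395, 723, 1102 and 33 reads in left replicates 1 to 5. On the right it had 26, 195, 1027, 367 and 39 reads. In CPM this was 0.542, 6.17, 12.2, 16.4 and 0.608 in the left libraries, against 0.382, 2.90, 15.8, 9.12 and 0.581 in the right ones, a 43.0-fold range. All 4 libraries of replicates 1 and 5 were below all of the other 6, as for 24.8% of tested genes. Astrocyte, oligodendrocyte and oligodendrocyte precursor markers had 14.3-fold, 16.7-fold and 17.7-fold ranges of their summed level and were also at their lowest in those 4 libraries. So were the markers of meningeal fibroblasts (16.6-fold), endothelium and mural cells (8.66-fold), lateral habenular neurons (6.58-fold), microglia (5.29-fold), thalamic neurons (4.95-fold) and choroid plexus and ependyma (4.17-fold). Their part in the Lgr5 values was not tested.

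Between the sides Lgr5 stood at 7.20 ± 7.06 and 5.77 ± 6.65 CPM, with a log2 fold change of 0.32 and an interval from -2.22 to 2.86. That interval includes differences of several fold in either direction. Leaving out right replicate 3 moved the value to 1.18, and leaving out left replicate 4 moved it to -0.23 (edgeR adjusted p = 1 for both). With limma-voom and sample weights it was 2.64 (adjusted p = 0.282). With a glial marker score as a second term in edgeR it was 0.43 (unadjusted p = 0.0124, adjusted p = 1).

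Lgr6, known from stem cells of skin and hair follicle, had 15 to 150 reads per library. It lies on the minus strand of chromosome 1 from 134983301 to 135105276 and stood at 0.739, 1.41, 1.35, 2.24 and 0.608 CPM in left replicates 1 to 5. On the right it stood at 0.220, 0.654, 1.96, 2.51 and 0.432 CPM. It was highest in replicates 3 and 4 of the right and replicate 4 of the left, and the 4 libraries of replicates 1 and 5 overlapped the other 6 only through left replicate 1 and right replicate 2. The means were 1.27 ± 0.648 and 1.15 ± 1.02 CPM (log2 fold change 0.14, 95% interval -1.30 to 1.59). Within the LGR class, Lgr4 made up 98.0% to 99.2% of the signal per kilobase in replicates 1 and 5 and 79.4% to 95.7% in the others. The share of Lgr5 was 0.434% to 0.807% and 3.19% to 17.4%.

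Of the ligases, Znrf3 had the higher level per kilobase and varied little, and Rnf43 was lower. Znrf3, on the minus strand of chromosome 11 from 5276324 to 5444847, stood at 32.6, 41.0, 32.7, 42.2 and 32.7 CPM in left replicates 1 to 5. On the right it stood at 33.1, 40.7, 35.6, 37.3 and 31.5 CPM, and the sides overlapped. The range was 1.34-fold and the SD of log2 CPM 0.16. The means were 36.2 ± 4.92 and 35.6 ± 3.59 CPM (log2 fold change 0.02, 95% interval -0.24 to 0.29).

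Rnf43, on the plus strand of the same chromosome from 87662722 to 87735539, had 76 to 213 reads. It stood at 1.25, 3.12, 3.56, 3.18 and 1.56 CPM in left replicates 1 to 5 and at 1.25, 2.02, 2.51, 2.96 and 1.51 CPM on the right. Replicates 1 and 5 of both sides were again all below the other 6 libraries, as for 24.8% of tested genes. The means were 2.53 ± 1.05 and 2.05 ± 0.703 CPM (log2 fold change 0.31, 95% interval -0.48 to 1.09). Znrf3 exceeded Rnf43 per kilobase 17.4-fold to 22.0-fold in replicates 1 and 5 and 7.64-fold to 16.7-fold in the others.

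**Figure D2:**
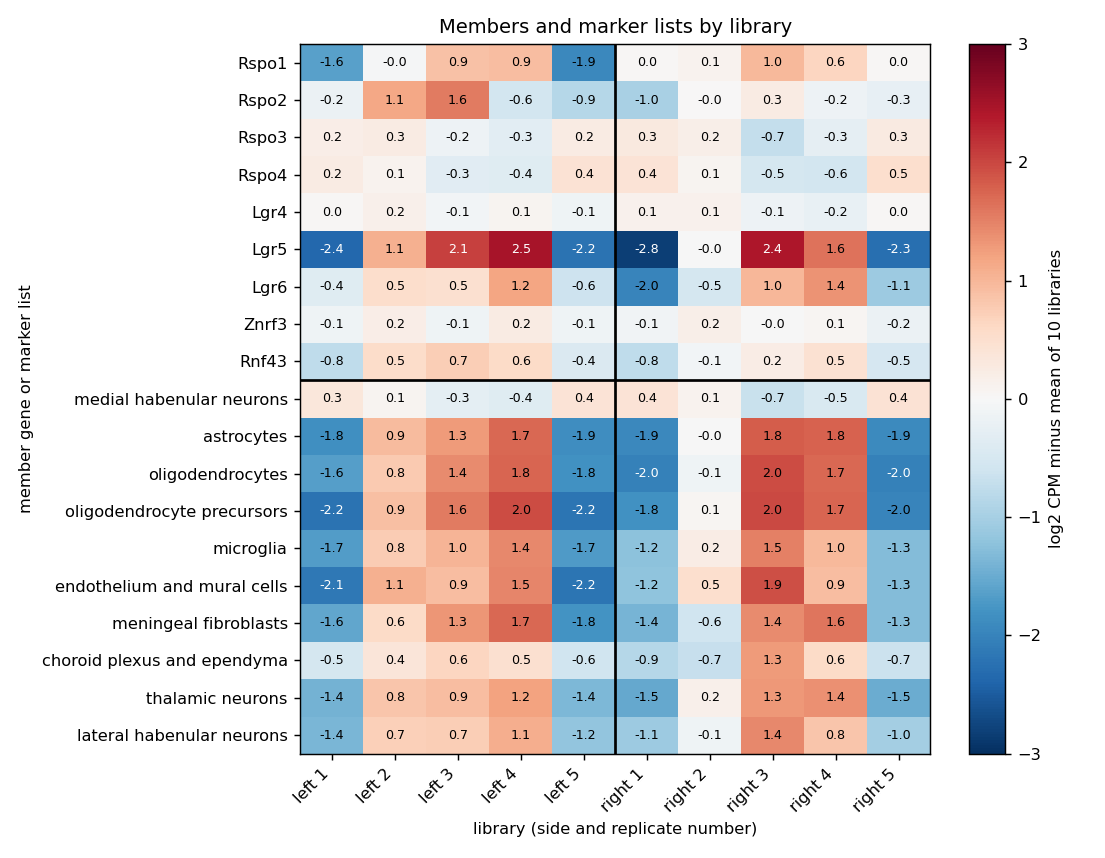
Log2 CPM of each of the 9 genes, and mean log2 CPM of the tested genes of each marker list, in each library minus the mean of the 10 libraries (colour and printed value). Lgr5 and the glial lists are low in replicates 1 and 5 of both sides and high in replicates 3 and 4, whereas Lgr4 and Znrf3 stay between -0.23 and 0.24, and Rspo3 and Rspo4, like the medial habenular list, are lowest in replicates 3 and 4.

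Levels of different genes were compared per kilobase of exon (CPM divided by the union of exon lengths). The mean order over the 10 libraries was Rspo3 (32.5 ± 6.95 CPM per kilobase, SD, n = 10), Rspo4 (11.0 ± 3.03), Lgr4 (7.83 ± 0.709), Znrf3 (4.56 ± 0.516), Rspo1 (1.27 ± 0.663), Lgr5 (0.632 ± 0.634), Rnf43 (0.349 ± 0.134), Lgr6 (0.177 ± 0.118) and Rspo2 (0.0147 ± 0.0141). Each gene was above the next in all 10 libraries except Lgr5, which was above Rnf43 in 5 of 10. In all 4 libraries of replicates 1 and 5 Lgr5 was below Rnf43 (0.0372 to 0.0592 against 0.190 to 0.239 CPM per kilobase). Elsewhere it was above Rnf43 except in right replicate 2, so the order of that pair depended on the libraries. With the length of the longest annotated transcript, Rspo4 was above Lgr4 in 6 of 10 libraries and Lgr5 and Rspo1 changed places. In replicates 1 and 5 alone Lgr5 dropped below Lgr6, and the first 5 places were the same. The first 4 places, held by 2 ligands, 1 receptor and 1 ligase, were the same under these alternatives.

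**Figure D3:**
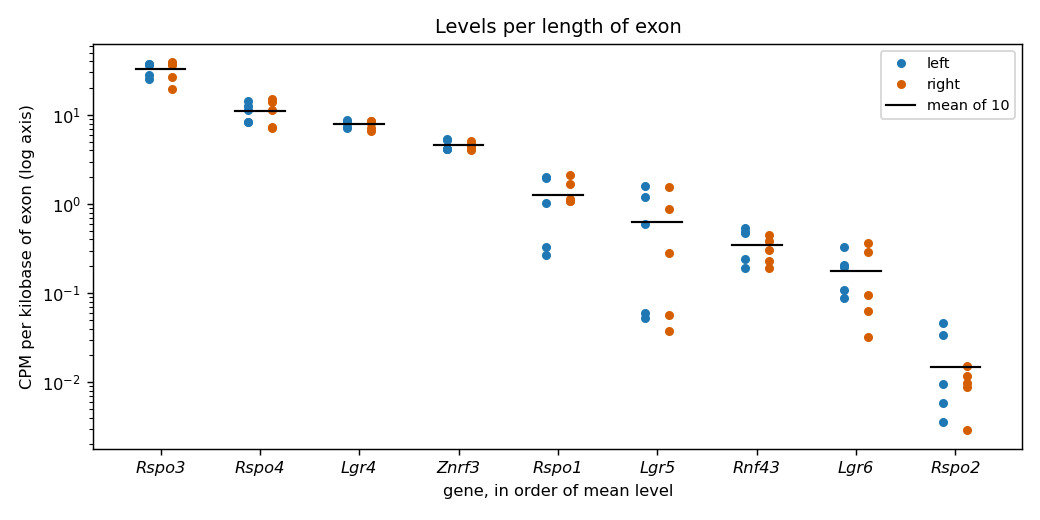
CPM per kilobase of exon (log axis) of the 9 genes in the order of their mean over 10 libraries (bar), with left libraries in blue and right in orange. The 4 leading genes form a group at 3.99 to 38.9 CPM per kilobase, and Lgr5 spreads from 0.0372 to 1.60.

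The comparison of left and right asked whether the sides differ in these transcripts, and no member passed the test. The edgeR quasi-likelihood test called 0 of the 8 tested members at an adjusted p under 0.05, where 0% of all 16250 tested genes were called (0 genes). At an unadjusted p under 0.05 it gave 0 members and 90 genes, which is 0.554% of those tested, and DESeq2 gave 0 called genes with 141 at an unadjusted p under 0.05. The edgeR share is far below the 0.05 that equal sides would give in a well-calibrated test. The test was thus cautious here, and 0 calls do not show that the sides are alike. Limma-voom with sample weights also called 0 genes, with 2409 (14.8%) at an unadjusted p under 0.05. Among these were 3 of the 8 members, all higher on the left, namely Lgr5 (log2 fold change 2.64), Lgr6 (1.675) and Rnf43 (0.80), each with an adjusted p of 0.282. No other fit, of all libraries or of a subset, gave values above 1.177 for Lgr5, 1.055 for Lgr6 or 0.492 for Rnf43. The weights of the libraries are not given here, and their part in these values was not tested. With the glial score as a term in edgeR, Lgr5 and Rspo1 (-0.63, unadjusted p = 0.0367) were 2 of 8 members under 0.05 before adjustment, against 3.11% of genes, and both had an adjusted p of 1. No member had left and right values that did not overlap, against 0.203% of tested genes. Of the 8 members 7 had a log2 fold change above 0 and the median was 0.04, against 7520 of 16250 and a median of -0.01 over all genes tested. Among the 7, Rspo4, Znrf3 and Lgr4 were at 0.00, 0.02 and 0.03. The 95% intervals of Lgr4 and Znrf3 ended at 0.29 on the log2 scale or nearer to 0, and those of Rspo3 and Rspo4 at 0.56 or nearer.

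In replicates 1 and 5 alone, the libraries with the least glial RNA, Rspo1 was lower on the left. It had 39 and 28 reads there against 143 and 141 reads on the right, a log2 fold change of -1.85 (edgeR adjusted p = 0.00419). It was the 1 of 8 members called, a share close to the 12.8% called among the 15569 genes tested in those 4 libraries. Summed markers of meningeal fibroblasts (7 genes) stood at 1.27 and 1.09 CPM in these left libraries against 2.17 and 2.06 CPM in the right ones, and those of endothelium and mural cells (12 genes) at 5.92 and 5.12 against 7.46 and 6.80 CPM. Gene by gene, 4 of 8 tested genes of endothelium and mural cells were called higher on the right and 1 on the left (median log2 fold change -1.14). Of 4 tested fibroblast genes 2 were called higher on the right (median -0.86), against 7.06% of all genes called in that direction. Only 8 of the 12 and 4 of the 7 genes of these lists passed the filter on low counts here. A gene with few reads can pass through 1 side alone, which limits what these counts and medians show. Oligodendrocyte genes went the other way, with 4 of 10 called higher on the left and 0 on the right (median 0.35). Of 7 lateral habenular genes 2 were called higher on the right (median -0.22). Each other marker list had at most 1 gene called in either direction. Of these lists, Cldn5 and Cdh5 and the fibroblast genes Lum, Slc6a13 and Col3a1 were at 0 in at least 1 of the 10 libraries, and the part of these cells in the result was not tested. In replicates 2 to 4 the log2 fold change of Rspo1 was 0.05 (adjusted p = 1), and the difference between both values was not tested. Since the pair of libraries on each side is so alike, this p-value may measure technical spread alone.

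**Figure D4:**
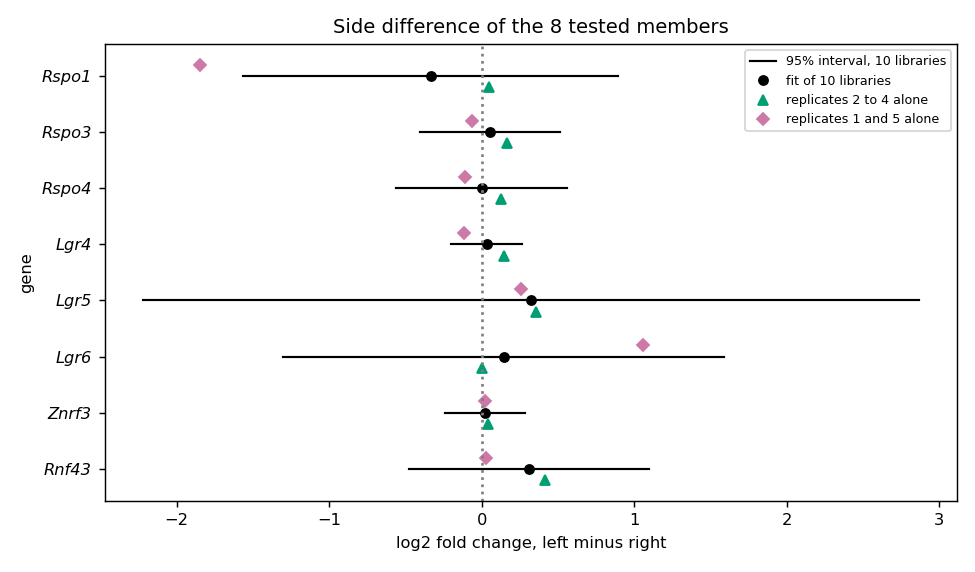
Log2 fold change (left minus right) of the 8 tested genes with its 95% interval from the fit of all 10 libraries (black), and the value from replicates 2 to 4 alone (green) and from replicates 1 and 5 alone (pink). All intervals include 0, and Rspo1 at -1.85 and Lgr6 at 1.05 in replicates 1 and 5 lie farthest from their value in the other replicates.

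The remaining genes of the Wnt pathway were present from ligand to nucleus and had no called side difference. Over 7 lists with 94 genes, 82 were tested, 0 were called in either direction and 0 had an unadjusted p under 0.05 in edgeR. The latter held for only 0.554% of all genes tested. Of the 82, 32 had a log2 fold change above 0 and 50 below, with a median of -0.02. Over all 16250 genes tested, 7520 were above 0 and 8730 below. The list of syndecans and glypicans, heparan sulfate carriers that can bind R-spondins, had 9 of 10 below 0 and a median of -0.14, and Wnt ligands 8 of 12 below 0 and a median of -0.10. The other 5 lists had medians of -0.03 to 0.05.

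Wnt2b, a ligand of the canonical pathway, had the highest CPM of the ligand list (not corrected for length). Its level was 49.9 ± 9.34 CPM in left and 49.5 ± 8.48 CPM in right libraries (SD, n = 5 each, in this order below). Wnt4 followed at 6.43 ± 4.84 and 7.63 ± 6.92 CPM, with 1.28 to 2.25 CPM in replicates 1 and 5 and 5.39 to 18.5 CPM in the other 6 libraries. Wnt7a, the tested ligand with the smallest p, stood at 0.674 ± 0.561 and 0.391 ± 0.371 CPM. The Frizzled receptor Fzd1 stood at 236 ± 22.9 and 222.3 ± 52.6 CPM, and Fzd3 at 132.3 ± 27.7 and 133.5 ± 37.1 CPM. Fzd3 was lower in all 4 libraries of replicates 1 and 5 (98.4 to 113.1 CPM) than in the other 6 (126.3 to 185.3 CPM). This order, which Wnt4 also had, was shown by 24.8% of tested genes. Ror1, a Wnt co-receptor, stood at 3.46 ± 0.380 and 2.97 ± 0.520 CPM. Frizzled proteins are the receptors that Znrf3 and Rnf43 remove from the membrane.

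Wls, which carries Wnt proteins to the cell surface, stood at 43.3 ± 12.7 and 43.1 ± 15.9 CPM. It was higher in all 4 libraries of replicates 1 and 5 (54.5 to 60.8 CPM) than in the others (26.6 to 38.5 CPM). Such an order was shown by 23.6% of tested genes. Sostdc1, a secreted Wnt and BMP antagonist, stood at 49.3 ± 10.6 and 48.7 ± 20.8 CPM. It had the same order as Wls, with 59.2 to 71.1 CPM in replicates 1 and 5 and 27.7 to 47.9 CPM in the others. The antagonist Sfrp4 stood at 0.256 ± 0.255 and 0.398 ± 0.273 CPM. The kinase Gsk3b stood at 899.4 ± 71.3 and 960 ± 52.5 CPM, and its substrate β-catenin (Ctnnb1) at 666.7 ± 188.6 and 726.2 ± 145.7 CPM. Ctnnb1 shares 15.1% of its exonic bases with other genes.

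At the nuclear end, Tcf7l2 varied little, from 1123 to 1288 CPM over the 10 libraries. The co-repressor Tle4 stood at 93.2 ± 18.3 and 90.3 ± 13.0 CPM, and the co-activator Pygo1 at 19.5 ± 2.38 and 17.6 ± 1.80 CPM. Tle4 was higher in all 4 libraries of replicates 1 and 5 (102.1 to 115 CPM) than in the others (75.1 to 83.6 CPM). That order was shown by 23.6% of tested genes. Axin2, a feedback inhibitor that Wnt signalling induces in many tissues, stood at 141.4 ± 23.9 and 146.1 ± 24.6 CPM, and the Tcf family factor Lef1 at 53.0 ± 8.58 and 51.0 ± 5.36 CPM. Lef1 is also one of the thalamic markers used here and shares 13.7% of its exonic bases with another gene. In all 4 libraries of replicates 1 and 5 it was lower (41.8 to 48.4 CPM) than in the others (52.4 to 63.5 CPM). Being lower in all 4 was shared by 24.8% of tested genes. Axin2 ranged from 152.9 to 173.8 CPM in those 4 libraries and overlapped the others, which ranged from 109.8 to 160.9 CPM. Apcdd1, a membrane inhibitor of Wnt signalling, stood at 3.70 ± 0.504 and 3.41 ± 0.325 CPM. The syndecan Sdc3 stood at 134.3 ± 23.7 and 135.4 ± 13.0 CPM, Sdc2 at 18.6 ± 4.35 and 20.8 ± 7.88 CPM, and the glypican Gpc4 at 0.246 ± 0.191 and 0.504 ± 0.361 CPM. Sdc2, like Lef1, was lower in all 4 libraries of replicates 1 and 5 (13.79 to 14.15 CPM) than in the others (17.02 to 29.32 CPM).

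**Figure D5:**
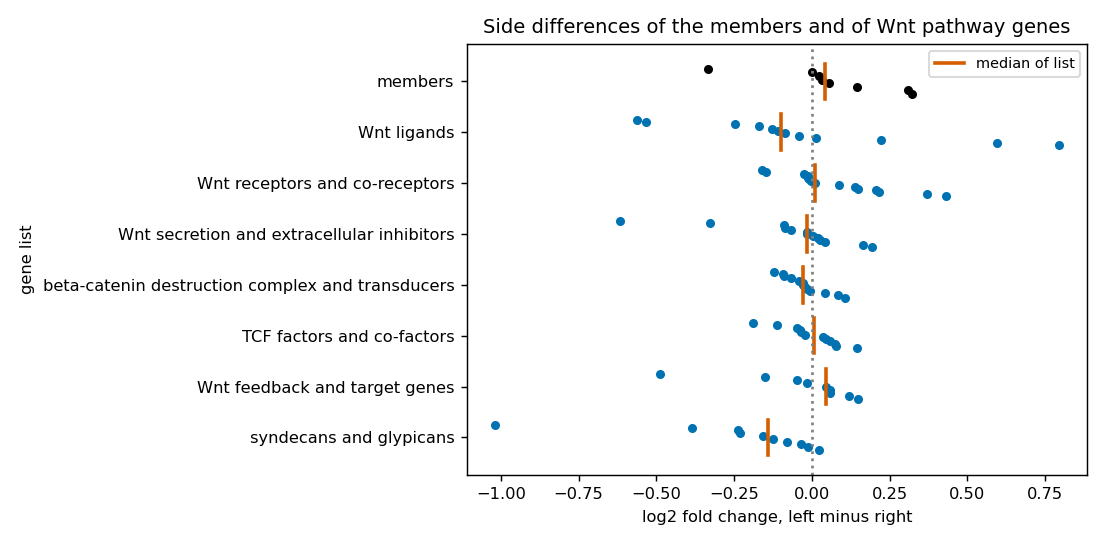
Log2 fold change (left minus right) of each tested gene in the 9-gene module (black, 8 genes) and in 7 lists of Wnt pathway genes (blue), with the median of each list in orange. The medians lie between -0.14 and 0.05, and the gene farthest from 0 is Gpc4 at -1.02.

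For each member that averaged 1 CPM or more, the 3 genes with the most similar profile were taken from 8960 genes, by the root mean square difference of mean-centred log2 CPM over the 10 libraries. Rspo3 was nearest to Gfra1, a GDNF family receptor, Slc44a5 and the aquaporin Aqp6 (0.08 each), and Rspo4 to Tma7, Mmgt2 and Dda1 (0.07, 0.07 and 0.08). Gfra1 stood at 382 to 718.9 CPM. Lgr4 was nearest to Thsd7b, the G protein subunit gene Gnal and Fam171b (0.06 each), and Znrf3 to Dnajc16, St8sia1 and Itm2b (0.05, 0.06 and 0.06), all of which varied little.

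Lgr5, Lgr6, Rnf43 and Rspo1 lay farther from their nearest profiles, but also varied more themselves. The root mean square of their mean-centred log2 CPM was 2.09, 1.03, 0.55 and 0.97. It was 0.13 for Lgr4, 0.15 for Znrf3, 0.33 for Rspo3 and 0.39 for Rspo4. The distances therefore do not rank how well each profile was matched. Lgr5 was nearest to Daam2, Pcdh7 and Ugt8a (0.23, 0.24 and 0.25), and Ugt8a, an enzyme of myelin lipid synthesis, is one of the oligodendrocyte markers used here. Daam2 stood at 1.97 to 45.3 CPM and Ugt8a at 1.31 to 40.0 CPM. Lgr6 was nearest to Kalrn, Cntn3 and Utp14b (0.30, 0.37 and 0.38), Rnf43 to Kazn, Hdx and Runx1t1 (0.18, 0.18 and 0.19) and Rspo1 to Lmtk3, Kcnq5 and Trpc5 (0.41, 0.46 and 0.48). All these profiles come from the same libraries and share the gap in glial markers between them, and the lower counts of Rspo1, Lgr6 and Rnf43 add counting noise to their distances.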

How the data were processed

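RNA on tagged ribosomes was sequenced in 10 libraries. The authors deposited raw gene counts, made with STAR 2.0.0e and HTSeq on mm10, per the submitters' processing notes. The sources used here give neither annotation nor strand setting. Of 32537 rows per file, 6 name no gene and were left out (no feature 13.6% to 18.9%, ambiguous 2.25% to 2.81% of uniquely aligned reads). Sides and replicate numbers come from the titles. The names of the files of replicates 2 to 5 carry a number lower by 1 on both sides, so the same libraries share a number either way. The members and lists were chosen with earlier results of these data known.

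The sides were compared over all genes by edgeR's quasi-likelihood test (version 4.0.16, R 4.3.3). Its model held side alone, with TMM factors, a robust fit and genes kept by filterByExpr at 10 reads, and the two-sided p-values were Benjamini-Hochberg adjusted and called under 0.05. For log2 CPM a prior of 2 reads was added. Coordinates and exon lengths are from GENCODE M21 (GRCm38, the same build as mm10). Alternatives were DESeq2 1.42.0, limma 3.58.1 (voom with sample weights), other normalisations and filters, the replicate number or a glial score (mean log2 CPM of tested glial and endothelial markers) as a term, and subsets of libraries. Named genes were the members, per Wnt list the 2 most abundant tested genes and the one with the smallest p, the 3 nearest profiles per member, and the first 2 genes of each marker list, of which only those of the medial habenula are printed and the other lists are given as sums. Plots used matplotlib 3.10.9 (Python 3.11.15).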

Additional observations from a re-analysis of the deposited data

How the results depend on the processing

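The counts of called genes, members and pathway genes were 0 in the edgeR fit of all 10 libraries and in 20 of 21 alternatives, among them DESeq2, limma-voom and each library left out. The exception was replicates 1 and 5 alone, with 1992 genes, 1 member and 6 pathway genes. The replicate numbers share a lane for replicates 2 to 5, but same-numbered libraries deviated together with correlations of 0.096 to 0.873 and 6 of 10 were closest to their own number, so pairing was not taken as given, although 4 of 5 correlations were 0.715 or higher. With the replicate block edgeR called 0 genes, with 297 at an unadjusted p under 0.05. It gave -0.656 for Rspo1, 0.447 for Lgr5 and 0.454 for Lgr6, and the glial score -0.632, 0.429 and 0.418. Between libraries of the same number, Rnf43 was higher on the left in 5 of 5 (block 0.265, adjusted p = 1). In replicate 1 it was nearly equal, at 1.249 left and 1.248 right CPM (76 and 85 reads). For the other members the left was higher in 1 of 5 (Rspo1) to 4 of 5 (Lgr5). The share of all genes with 5 of 5 was not computed.

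Of 168 log2 fold changes of members under alternatives, 139 kept direction and call, 28 changed sign and 1 became a call. Rnf43 was above 0 in all 21 alternatives (0.029 to 0.802), and each other tested member changed sign in at least 1. Rspo4 was at -0.002 with median-of-ratios factors and with DESeq2. With limma-voom Rspo3, Rspo4 and Lgr4 were at -0.152, -0.343 and -0.031, and Lgr5, Lgr6 and Rnf43 at 2.640, 1.675 and 0.802. Replicates 2 to 4 gave 0.048 for Rspo1 and -0.001 for Lgr6, and replicates 1 and 5 gave -0.063, -0.112 and -0.114 for Rspo3, Rspo4 and Lgr4 and -1.846 for Rspo1. Leaving out 1 library gave -0.074 to 0.138 for Rspo3, -0.119 to 0.140 for Rspo4, -0.018 to 0.068 for Lgr4, -0.235 to 1.177 for Lgr5, -0.162 to 0.649 for Lgr6, -0.036 to 0.076 for Znrf3, 0.169 to 0.492 for Rnf43 and -0.659 to -0.078 for Rspo1. The causes were not tested. In the order per kilobase, 7 of 9 members kept their place with the longest transcript and 6 of 9 in replicates 1 and 5 alone. The right mean of Lgr5 moved from 5.77 to 3.25 CPM without right replicate 3, and the left mean of Rspo2 from 0.101 to 0.0673 CPM without left replicate 3. Low counts limit Rspo2 (1 to 14 reads), and the gap between libraries limits Lgr5, Lgr6 and Rspo1.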

Other observations

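In replicates 1 and 5 alone 6 other genes of the Wnt lists differed between the sides in edgeR, of 79 tested. This is a smaller share than the 12.8% of all genes called in those libraries. Since the pair of libraries on each side is so alike, these p-values may measure technical spread alone. Nkd2, a feedback inhibitor that binds Dishevelled, was lower on the left, at 0.263 and 0.276 CPM against 1.26 and 1.16 CPM (log2 fold change, left minus right, -2.16, adjusted p = 0.00466). Wnt5b, a ligand mostly linked to signalling without β-catenin, was higher on the left, at 0.411 and 0.313 against 0.0734 and 0.0745 CPM, which was 25 and 17 against 5 and 5 reads (2.27, adjusted p = 0.0149). Porcn, the acyltransferase that makes Wnt proteins ready for secretion, was lower on the left at 35.4 and 37.9 against 43.4 and 44.1 CPM (-0.25, adjusted p = 0.0252). Sostdc1 was also lower there, at 59.2 and 61.2 against 68.9 and 71.1 CPM (-0.21, adjusted p = 0.0287). So were the glypicans Gpc1 (-0.35, adjusted p = 0.046) and Gpc4 (-1.61, adjusted p = 0.048). Gpc4 had 4 and 5 left reads against 14 and 19 right reads. Wnt5b and Gpc4 passed the filter on low counts only through the side where they were higher, so their calls cannot be separated from that filter.

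In replicates 2 to 4 the log2 fold changes of Nkd2, Wnt5b, Porcn, Sostdc1, Gpc1 and Gpc4 were -0.28, -0.13, 0.18, 0.29, 0.05 and -0.89, and none was called. The difference between both sets of libraries was not tested. Lgr6, with 45 and 33 left reads against 15 and 29 right reads, had the next smallest p of the members in replicates 1 and 5 (log2 fold change 1.05, edgeR adjusted p = 0.0605).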
